A study of Mus musculus with 9 samples.

Results

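Mast cell proteases, receptors, their growth factor and the histamine-forming enzyme were followed in whole mouse uterus by RNA sequencing. The set holds 8 genes, taken by symbol from a table of 18094 genes: Mcpt4, Cma1, Tpsb2, Cpa3, Kit, Kitl, Hdc and Ms4a2. All 8 were present in the table and 7 passed the low-count filter. Ms4a2 did not pass and was not tested. The genes were chosen by function and by their levels in tamoxifen against control uteri, with earlier results of these libraries known. Values of these genes in both comparisons with control are therefore given as a description, with no test. The 4 proteases and Kitl were lower in each tamoxifen library than in any control library, Hdc was higher, and Kit overlapped. In tamoxifen+primidone libraries the summed proteases lay between those of the other two groups, and 0 of the 7 tested genes passed the test against tamoxifen uteri after adjustment.

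Tissue came from 9 female mice at 13 weeks of age, 3 in each group. Tamoxifen+primidone mice were fed 1 mg/kg tamoxifen, which modulates estrogen receptors, in peanut oil, lecithin and condensed milk on days 1 to 5 of life. From week 10 they were injected intraperitoneally with primidone, an anticonvulsant, at 2 mg/kg per day for 3 weeks. Tamoxifen mice had the same neonatal dosing and then vehicle injections. Control mice had the solvent without tamoxifen and then vehicle injections. The sources used here name neither the strain nor the stage of the estrous cycle. Feeding tamoxifen to newborn mice is a model of adenomyosis, a growth of endometrial tissue within the muscle of the uterus.

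Mast cells are tissue-resident cells that store proteases and histamine in granules and release them when IgE on their surface meets antigen, or when other receptors are engaged. Their growth and survival depend on the receptor tyrosine kinase Kit and its ligand, the stem cell factor encoded by Kitl. In rodents, mast cells of connective tissue type lie in the endometrium and myometrium, and their number and degranulation are known to vary with ovarian hormones. Mcpt4 and Cma1 encode chymases, Tpsb2 a tryptase and Cpa3 a carboxypeptidase, all stored in mast cell granules. Ms4a2 encodes the beta chain of the high-affinity IgE receptor. Hdc encodes histidine decarboxylase, which makes histamine and is also known from myeloid cells and, in mouse uterus, from epithelium.

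Promoter sequences from RefSeq (GRCm38.p6) were found for 7 of the 8 genes and were not found for Tpsb2. The 250 bases before the start site are shown for the 3 proteases that have an entry, which were low together in the tamoxifen libraries, and for Hdc, which was high there. Capitals mark TGATAA or AGATAA, forms of the core bound by GATA factors, on either strand, and TATAAA on the forward strand. Other forms of that core were not searched for. All 4 genes lie on the minus strand, and each sequence is written 5′ to 3′ on that strand. The windows are chr14:56062311-56062560 for Mcpt4, chr14:55944676-55944925 for Cma1, chr3:20242182-20242431 for Cpa3 and chr2:126618679-126618928 for Hdc. For Cpa3 and Hdc the start site of the entry lies inside the span annotated for the gene.
Mcpt4: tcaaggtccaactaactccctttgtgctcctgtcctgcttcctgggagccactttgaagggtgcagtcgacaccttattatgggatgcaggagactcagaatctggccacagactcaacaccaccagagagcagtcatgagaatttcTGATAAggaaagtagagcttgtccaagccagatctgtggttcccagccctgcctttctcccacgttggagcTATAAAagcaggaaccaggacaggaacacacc
Cma1: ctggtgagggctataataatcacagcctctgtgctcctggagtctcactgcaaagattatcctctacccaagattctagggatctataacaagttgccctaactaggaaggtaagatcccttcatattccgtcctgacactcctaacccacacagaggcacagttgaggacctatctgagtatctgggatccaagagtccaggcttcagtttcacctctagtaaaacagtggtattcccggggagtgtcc
Cpa3: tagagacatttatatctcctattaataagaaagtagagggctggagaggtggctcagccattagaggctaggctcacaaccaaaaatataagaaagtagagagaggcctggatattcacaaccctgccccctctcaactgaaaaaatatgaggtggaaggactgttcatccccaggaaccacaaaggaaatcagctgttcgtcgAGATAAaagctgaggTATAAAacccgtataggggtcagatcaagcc
Hdc: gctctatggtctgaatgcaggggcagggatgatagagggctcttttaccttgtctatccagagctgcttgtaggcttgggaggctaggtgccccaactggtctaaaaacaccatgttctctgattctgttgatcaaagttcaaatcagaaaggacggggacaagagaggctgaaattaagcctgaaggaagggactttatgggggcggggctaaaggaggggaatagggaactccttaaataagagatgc
Mcpt4 and Cpa3 each held 1 GATA core and 1 TATAAA, and the TATAAA ended 26 bases before the start site in Mcpt4 and 25 in Cpa3. Cma1 and Hdc held neither in these windows. Among 32851 mouse promoter windows of the same length, 16.6% held a GATA core and 7.59% TATAAA. The E-box forms CACATG and CACGTG, bound by MITF among other factors, were in 17.6% of all windows and in none of the 4 shown. These matches describe the letters and are not evidence of binding.

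Levels are in CPM, counts scaled to a common library total, after normalization by the trimmed mean of M-values (TMM), from libraries of 36393120 to 39958443 counts. At that depth 1 count was worth 0.0252 to 0.0276 CPM, so the proteases rest on 17 to 220 counts per library. The 8 uterine markers checked, among them Hoxa10, Pgr and Myh11, were detected in all 9 libraries. Myh11, of smooth muscle, averaged 1247 CPM in tamoxifen+primidone, 1336 CPM in tamoxifen and 2011 CPM in control uteri. It was the 1 of the 8 called in tamoxifen+primidone against control, where 5.35% of all genes were (log2 fold change −0.69 ± 0.16, edgeR adjusted p = 0.0357). In tamoxifen against control it did not pass (−0.59 ± 0.16, edgeR adjusted p = 0.093). Of genes outside the set, the summed level of 5 adipocyte markers was 41.9 to 211 CPM in tamoxifen+primidone, 19.5 to 172 CPM in tamoxifen and 10.7 to 17.1 CPM in control libraries, and was highest in tamoxifen+primidone 2. The sum of 4 mesothelial markers was 57.9 to 75.1 CPM in tamoxifen+primidone, 30.7 to 87.9 CPM in tamoxifen and 16.7 to 27.2 CPM in control libraries, with every library from tamoxifen-dosed mice above all controls. Msln, mesothelin, was the 1 of the 4 called in tamoxifen against control, with 1.53% of all genes called (log2 fold change 1.90 ± 0.35, edgeR adjusted p = 0.0399). In tamoxifen+primidone against control 2 of the 4, Msln and Lrrn4, were called (edgeR adjusted p = 0.0357 and 0.0309), with 5.35% of all genes called. Ovgp1, an oviduct gene, stood at 0.684 to 0.982 CPM in tamoxifen+primidone, 61.9 to 267 CPM in tamoxifen and 1.18 to 36.5 CPM in control libraries. In tamoxifen+primidone against tamoxifen its log2 fold change was −7.46 ± 1.35 (edgeR adjusted p = 0.117). Gdf9, Inha and Foxl2, the other tested markers of ovary and oviduct, did not follow it, at 0.46, 0.06 and 0.25. The part of such tissue in the results below was not tested. Whether fewer mast cells or less RNA per mast cell underlies a low value cannot be told apart in whole tissue.

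Mcpt4, the chymase on chromosome 14 (GRCm38.p6 chr14:56059744-56062310), had 3.36, 2.86 and 1.79 CPM in tamoxifen+primidone libraries, 0.873, 1.05 and 1.05 CPM in tamoxifen libraries and 2.98, 4.28 and 4.94 CPM in control libraries. All 3 tamoxifen libraries lay below every other library, while the tamoxifen+primidone and control ranges overlapped. The raw counts behind the tamoxifen values were 34, 38 and 41, with exact 95% Poisson intervals of 23.5 to 47.5, 26.9 to 52.2 and 29.4 to 55.6, which cover counting error only. The fitted log2 fold change was −2.04 ± 0.33 (SE) in tamoxifen against control and −0.61 ± 0.31 in tamoxifen+primidone against control.

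Tpsb2, the tryptase (chr17:25366308-25368096), had 3.49, 3.37 and 1.11 CPM in tamoxifen+primidone libraries, 1.41, 1.32 and 1.30 CPM in tamoxifen libraries and 5.17, 5.57 and 5.94 CPM in control libraries. The control libraries stood above all 6 libraries from tamoxifen-dosed mice. Tamoxifen+primidone 3 was the lowest of the 9, below all 3 tamoxifen libraries, and the other two tamoxifen+primidone libraries lay between the tamoxifen and control ranges. Its log2 fold change was −2.04 ± 0.39 in tamoxifen against control and −1.07 ± 0.37 in tamoxifen+primidone against control.

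Cma1, the other chymase on chromosome 14 (chr14:55941451-55944675), had 2.09, 2.51 and 1.26 CPM in tamoxifen+primidone libraries, 0.437, 1.27 and 1.89 CPM in tamoxifen libraries and 2.72, 4.07 and 3.97 CPM in control libraries. Again every control library stood above the other 6. Tamoxifen replicates were more scattered than for Mcpt4 and Tpsb2, and tamoxifen 1 held only 17 counts (exact 95% Poisson interval 9.9 to 27.2), against 46 and 74 in tamoxifen 2 and 3. For Cma1 the log2 fold change was −1.58 ± 0.48 in tamoxifen against control and −0.87 ± 0.47 in tamoxifen+primidone against control.

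Cpa3, the carboxypeptidase (chr3:20215616-20242209), had 1.53, 4.03 and 1.64 CPM in tamoxifen+primidone libraries, 0.873, 1.43 and 0.741 CPM in tamoxifen libraries and 2.14, 1.93 and 2.64 CPM in control libraries. Tamoxifen libraries were the 3 lowest of the 9. Tamoxifen+primidone 2 was the highest and the other two tamoxifen+primidone libraries lay just below the control range. For Cpa3 it was −1.14 ± 0.44 in tamoxifen against control and 0.10 ± 0.43 in tamoxifen+primidone against control, where it was −0.50 without tamoxifen+primidone 2.

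**Figure D1:**
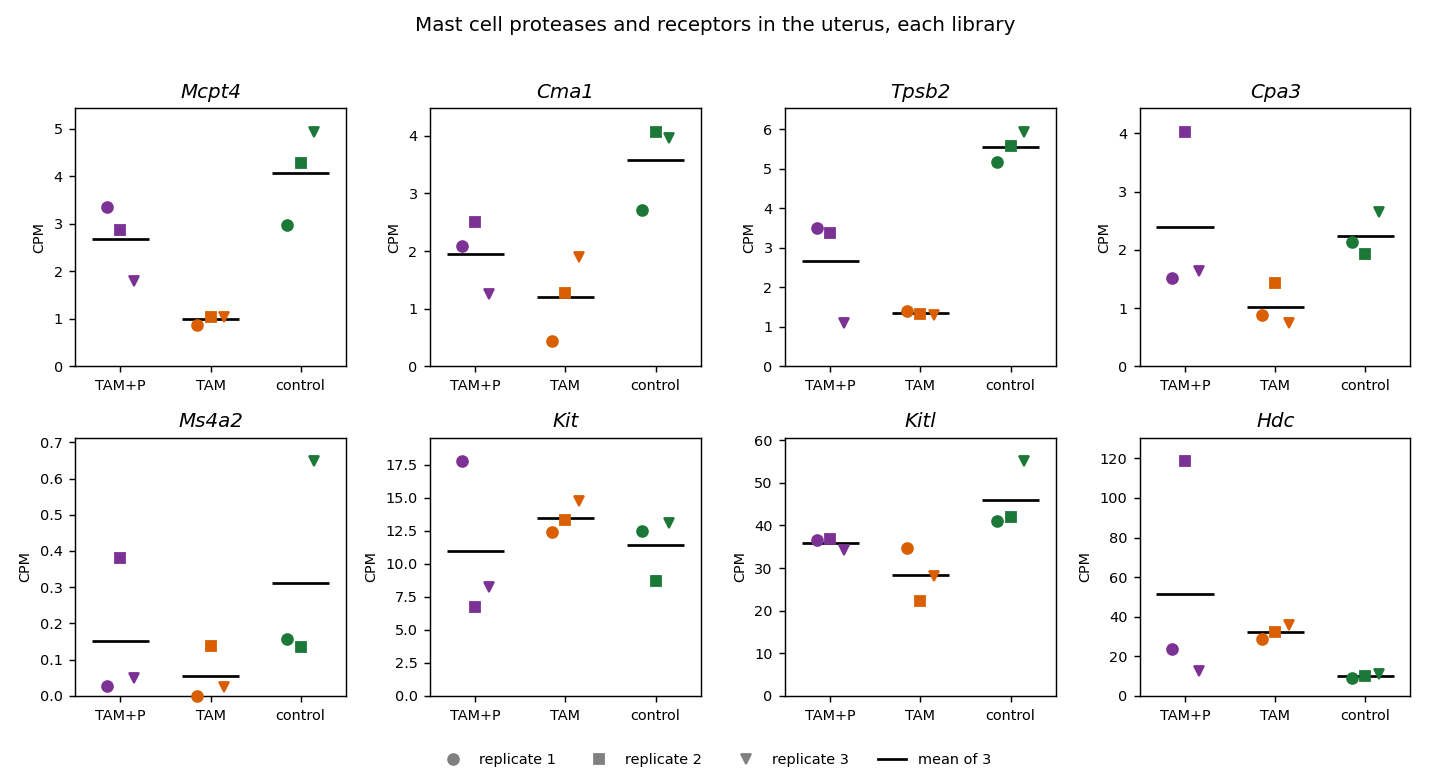
CPM (TMM-scaled) of the 8 genes in each library, in tamoxifen+primidone (TAM+P), tamoxifen (TAM) and control uteri; each symbol is 1 library and the bar the mean of 3. Mcpt4, Tpsb2, Cma1 and Cpa3 were lower in all 3 tamoxifen libraries than in any control library, Hdc was higher, and Hdc reached 119 CPM in tamoxifen+primidone 2.

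Per length, on the authors' FPKM values, the 4 proteases summed to 10.1, 11.5 and 5.21 FPKM in tamoxifen+primidone libraries, 3.13, 4.43 and 4.45 FPKM in tamoxifen libraries and 11.6, 14.6 and 15.6 FPKM in control libraries. The group means were 8.96 ± 3.32, 4.01 ± 0.756 and 13.9 ± 2.08 FPKM in tamoxifen+primidone, tamoxifen and control uteri (SD, n = 3 each). The 3 groups did not overlap in this sum, although tamoxifen+primidone 2 came close to the lowest control library and tamoxifen+primidone 3 to the highest tamoxifen library. This order is a description, since the sum is made of genes chosen with part of it known.

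The mixture of the proteases also differed among libraries. Tpsb2 made up 34.3%, 28.8% and 20.6% of the protease sum in tamoxifen+primidone libraries, 41.8%, 28.3% and 27.3% in tamoxifen libraries and 41.4%, 36.1% and 35.1% in control libraries. Cpa3 made up 10.7%, 24.5% and 21.6% in tamoxifen+primidone libraries, 18.3%, 21.8% and 11% in tamoxifen libraries and 12.2%, 8.88% and 11.1% in control libraries. The FPKM ratio of Cpa3 to Tpsb2 was thus 0.31, 0.849 and 1.05 in tamoxifen+primidone libraries, 0.439, 0.77 and 0.404 in tamoxifen libraries and 0.294, 0.246 and 0.316 in control libraries. Controls held a narrow range of this ratio, which tamoxifen+primidone 1 shared and the other 5 libraries from tamoxifen-dosed mice exceeded.

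**Figure D2:**
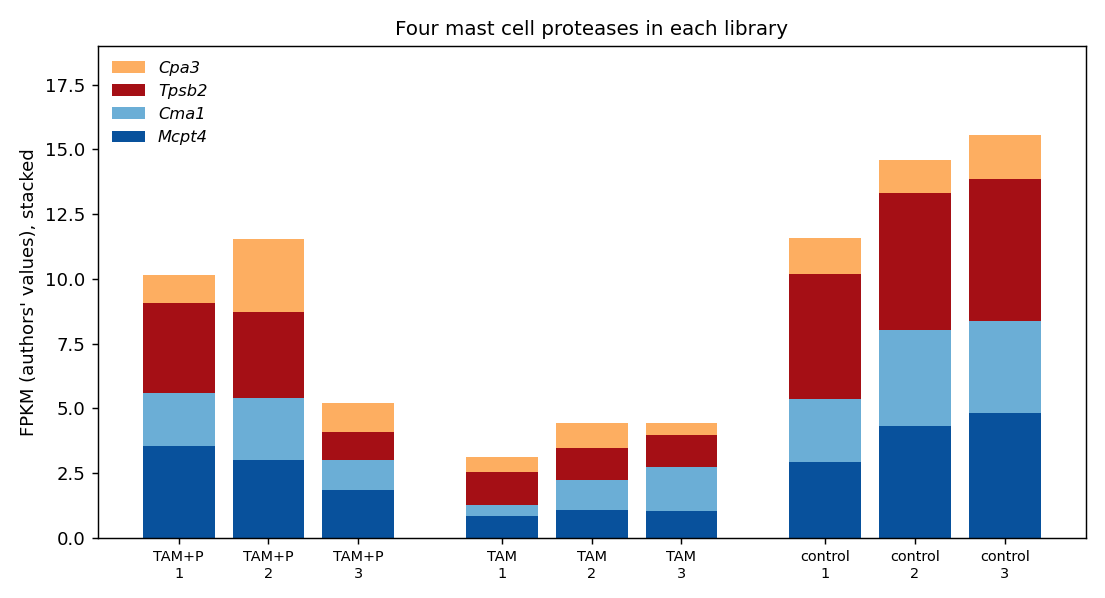
FPKM of Mcpt4, Cma1, Tpsb2 and Cpa3 stacked for each library, in tamoxifen+primidone (TAM+P), tamoxifen (TAM) and control uteri. The sum ran from 5.21 to 11.5 FPKM in tamoxifen+primidone, 3.13 to 4.45 FPKM in tamoxifen and 11.6 to 15.6 FPKM in control libraries.

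Ms4a2, the IgE receptor beta chain (chr19:11615517-11623790), was near the limit of detection. It had 1, 15 and 2 counts in tamoxifen+primidone libraries, 0, 5 and 1 in tamoxifen libraries and 6, 5 and 24 in control libraries. Control 3 and tamoxifen+primidone 2 held most of these counts, and the groups overlapped. The 0 counts of tamoxifen 1 allow a level of up to 0.077 CPM, the value of 3 counts. Fcer1a, the alpha chain of the same receptor, had 4, 6 and 0 counts in tamoxifen+primidone libraries, 1, 0 and 1 in tamoxifen libraries and 5, 0 and 2 in control libraries, so neither chain could be compared at this depth.

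Kit (chr5:75574987-75656722) did not share the pattern of the proteases. It had 17.8, 6.76 and 8.28 CPM in tamoxifen+primidone libraries, 12.4, 13.3 and 14.7 CPM in tamoxifen libraries and 12.5, 8.70 and 13.1 CPM in control libraries, with overlap of all 3 groups. Kit is also known from interstitial pacemaker-type cells, melanocytes and germ cells. Its log2 fold change was 0.24 ± 0.32 in tamoxifen against control and −0.06 ± 0.33 in tamoxifen+primidone against control. Of 5 melanocyte markers in the table, Dct, Tyrp1 and Mlana had at most 9 counts in any library. Pmel and Mlph were well above that, at 4.81 to 13.3 CPM and 94.2 to 198 CPM over the 9 libraries. Mlph was the 1 called in any comparison, lower in tamoxifen+primidone than in control uteri (log2 fold change −0.67 ± 0.13, edgeR adjusted p = 0.0216), where 5.35% of all genes were called. Whether Mlph reports melanocytes here, with Dct, Tyrp1 and Mlana so low, was not tested. Of 4 markers of interstitial cells of Cajal, 1 passed in 1 comparison, where 5.35% of all genes did: Ano1, a chloride channel, rose to 44.6 ± 9.53 CPM in tamoxifen+primidone, against 24.0 ± 6.01 CPM in control uteri (log2 fold change 0.89 ± 0.19, edgeR adjusted p = 0.0309), with 28.6 ± 2.65 CPM in tamoxifen uteri. Ano1 was called under 12 of the 17 alternatives, with an adjusted p of 0.000384 to 0.12 over all of them. Alternatives in which that call was lost included those without tamoxifen+primidone 1 or 2 or control 1 or 3, at adjusted p of 0.0565 to 0.12. Etv1, a transcription factor on the same list, differed the other way, with 5.85 CPM in tamoxifen+primidone and 10.7 CPM in control uteri, and did not pass (log2 fold change −0.87 ± 0.25, edgeR adjusted p = 0.0737).

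Kitl (chr10:100015615-100100416) had 36.5, 36.8 and 34.2 CPM in tamoxifen+primidone libraries, 34.8, 22.3 and 28.2 CPM in tamoxifen libraries and 41.1, 42.1 and 55.0 CPM in control libraries. All 6 libraries from tamoxifen-dosed mice lay below all controls. Kitl had a log2 fold change of −0.70 ± 0.16 in tamoxifen against control and −0.36 ± 0.16 in tamoxifen+primidone against control. In FPKM, Kitl exceeded Kit in each of the 9 libraries, with a ratio of 1.84, 4.86 and 3.70 in tamoxifen+primidone libraries, 2.5, 1.5 and 1.71 in tamoxifen libraries and 2.94, 4.32 and 3.77 in control libraries. Tamoxifen ratios were all below the control ratios.

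Hdc (chr2:126593659-126624025) went the other way from the proteases. It had 23.8, 119 and 12.6 CPM in tamoxifen+primidone libraries, 28.8, 32.1 and 35.7 CPM in tamoxifen libraries and 9.22, 10.3 and 10.9 CPM in control libraries. Controls were the 3 lowest of the 9, tamoxifen replicates were close together, and tamoxifen+primidone replicates were the most scattered. For Hdc the log2 fold change was 1.67 ± 0.76 in tamoxifen against control and 2.35 ± 0.78 in tamoxifen+primidone against control, where it was 0.85 without tamoxifen+primidone 2. That library also had the highest adipocyte sum and the highest Cpa3, and its 6 macrophage markers summed to 743 CPM, against 468 and 486 CPM in the other two tamoxifen+primidone libraries. Tamoxifen 1 had the highest macrophage sum of the 9 libraries, 804 CPM, and 28.8 CPM of Hdc. The part of these cells in the Hdc level of tamoxifen+primidone 2 was not tested.

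On the FPKM scale the order of the 8 genes differed between groups. In tamoxifen+primidone uteri Hdc came first at 20.2 ± 22.8 FPKM, its spread spanning all lower genes, followed by Kitl at 6.42 ± 0.342, Mcpt4 at 2.80 ± 0.881, Tpsb2 at 2.63 ± 1.35, Kit at 2.20 ± 1.23, Cma1 at 1.86 ± 0.621, Cpa3 at 1.68 ± 0.992 and Ms4a2 at 0.0559 ± 0.0728 FPKM. From Mcpt4 to Cpa3 neighbours in that order differed by less than 1 SD. In tamoxifen uteri the order was Hdc at 12.0 ± 1.33, Kitl at 4.83 ± 1.01, Kit at 2.57 ± 0.227, Tpsb2 at 1.26 ± 0.046, Cma1 at 1.09 ± 0.66, Mcpt4 at 0.985 ± 0.109, Cpa3 at 0.677 ± 0.253 and Ms4a2 at 0.0192 ± 0.026 FPKM. In control uteri it was Kitl at 7.81 ± 1.24, Tpsb2 at 5.19 ± 0.344, Mcpt4 at 4.03 ± 0.981, Hdc at 3.75 ± 0.306, Cma1 at 3.23 ± 0.694, Kit at 2.17 ± 0.424, Cpa3 at 1.48 ± 0.225 and Ms4a2 at 0.108 ± 0.0994 FPKM (SD, n = 3). Hdc over the protease sum was 0.931, 4.03 and 0.927 in tamoxifen+primidone libraries, 3.38, 2.73 and 2.98 in tamoxifen libraries and 0.294, 0.264 and 0.256 in control libraries.

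Ranges of 5 of the 7 tested genes in tamoxifen libraries lay wholly below the control range and Hdc lay above it, where 13.4% and 12.7% of all genes did, 26.1% in all. The median log2 fold change of the 7 was −1.14, beside 0.00 over all genes tested. Tpsb2, Cma1 and Kitl lay below the control range in tamoxifen+primidone libraries and Hdc above it, where 15.1% and 14.1% of all genes did, 29.1% in all. The median of the 7 was −0.36, beside 0.01 over all genes. Both comparisons share the control libraries and both describe values that chose the genes.

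The comparison of tamoxifen+primidone with tamoxifen uteri asked what 3 weeks of primidone did in mice dosed with tamoxifen as newborns. It shares the tamoxifen libraries with the comparison that chose the genes, which by itself favours positive values for genes chosen as low there. Of the 7 genes 6 had positive log2 fold changes, as did 52.8% of all genes. Of the 7, 0 passed edgeR's test, where 0.0132% of all genes did, all of them lower. The largest value was that of Mcpt4, with 2.67 ± 0.805 CPM in tamoxifen+primidone and 0.990 ± 0.101 CPM in tamoxifen libraries (SD, n = 3 each), a log2 fold change of 1.43 ± 0.32 (edgeR adjusted p = 0.125). It was higher in 3 of 3 tamoxifen+primidone libraries than in any tamoxifen library. DESeq2 called Mcpt4 alone (adjusted p = 0.00426), and over all alternatives its adjusted p ran from 0.00426 to 0.289.

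Cpa3, at 2.40 ± 1.41 CPM in tamoxifen+primidone and 1.02 ± 0.368 CPM in tamoxifen libraries, had a log2 fold change of 1.24 ± 0.44 (edgeR adjusted p = 0.262) and also did not overlap. Without tamoxifen+primidone 2 the Cpa3 value was 0.63. Ranges of 8.08% of all genes lay above the tamoxifen range in this way, and of 8.55% below it, 16.6% in all. Tpsb2 stood at 0.98 ± 0.38 (edgeR adjusted p = 0.295) and Cma1 at 0.70 ± 0.48 (edgeR adjusted p = 0.565), each with tamoxifen+primidone 3 inside or below the tamoxifen range. Kitl stood at 0.33 ± 0.16 (edgeR adjusted p = 0.398) and Kit at −0.30 ± 0.33 (edgeR adjusted p = 0.744).

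Hdc, at 0.68 ± 0.73 (edgeR adjusted p = 0.751), depended on tamoxifen+primidone 2: without that library the value was −0.83. Of the 7, Mcpt4, Tpsb2 and Cpa3 had an unadjusted p under 0.05, as did 13.8% of all genes, and DESeq2 called 3.95% of all genes. Limma called 0 of the 7 on log2(FPKM + 1) and on log2(FPKM + 0.1), with 0.00659% and 0.0198% of all genes called. In the edgeR fit the median log2 fold change of the 7 was 0.70, beside 0.02 over all genes. With 3 uteri a group these intervals are wide, and a missed threshold does not show that primidone left a gene as it was.

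**Figure D3:**
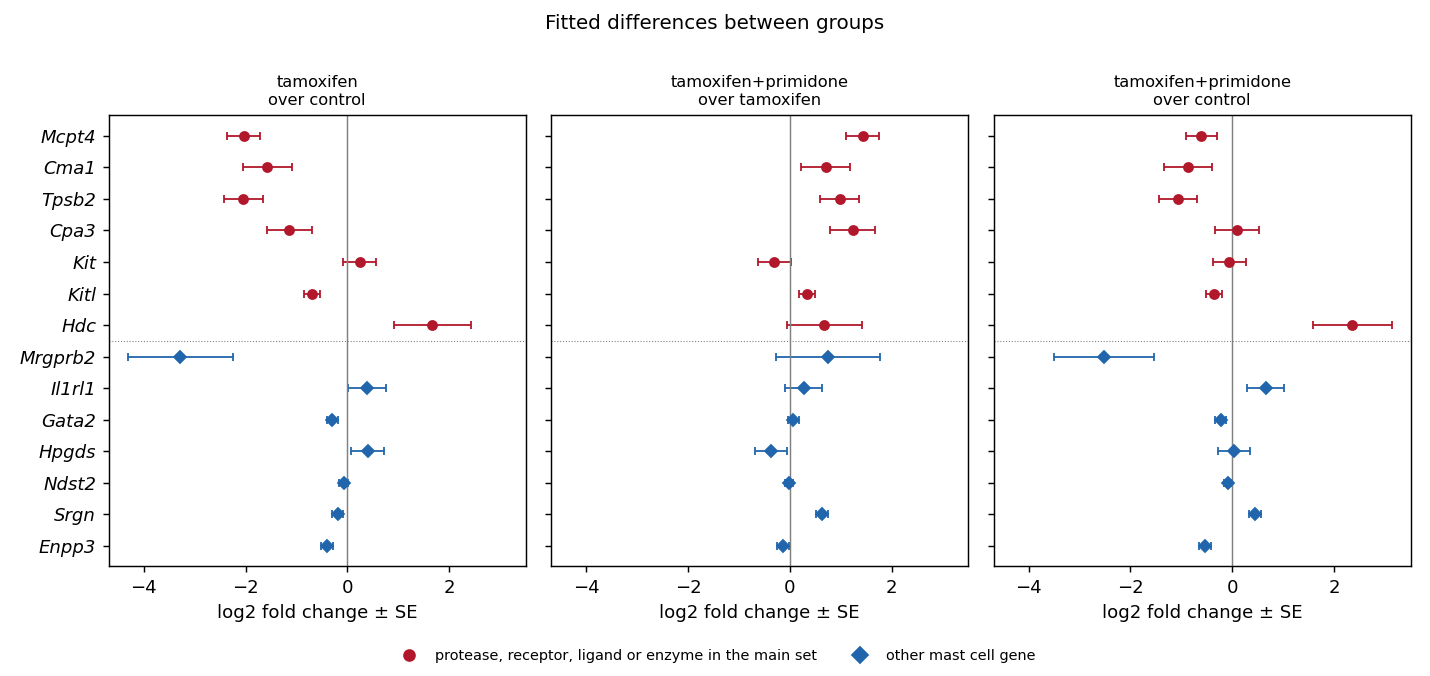
Fitted log2 fold changes with their standard errors for 7 genes of the set (circles) and 7 other mast cell genes (diamonds) in tamoxifen over control, tamoxifen+primidone over tamoxifen, and tamoxifen+primidone over control. Mcpt4, Cma1, Tpsb2, Cpa3, Kitl, Mrgprb2, Gata2 and Srgn lie below 0 in the first panel and above 0 in the second. Both panels share the tamoxifen libraries. Mrgprb2 has the widest errors.

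Mast cell genes outside the set were taken from a list of 19, of which 17 were in the table and 7 passed the low-count filter. Mrgprb2 (chr7:48550965-48558086), a receptor of mouse mast cells for basic peptides and drugs, is a defining mast cell gene. It had 5, 43 and 44 counts in tamoxifen+primidone libraries, 8, 42 and 1 in tamoxifen libraries and 190, 95 and 219 in control libraries. Every control library thus stood above all 6 libraries from tamoxifen-dosed mice. Its levels were 0.775 ± 0.559 CPM in tamoxifen+primidone, 0.463 ± 0.609 CPM in tamoxifen and 4.47 ± 1.74 CPM in control uteri (SD, n = 3 each).

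For Mrgprb2 the log2 fold change was −3.28 ± 1.03 in tamoxifen against control (edgeR adjusted p = 0.146) and −5.23 without tamoxifen 2. It was −2.52 ± 0.98 in tamoxifen+primidone against control (edgeR adjusted p = 0.166). DESeq2 called both (adjusted p = 0.00998 and 0.0459), as did limma on log2(FPKM + 1) (adjusted p = 0.0339 and 0.032). Its adjusted p over the alternatives ran from 0.00998 to 0.312 and from 0.032 to 0.331. Between tamoxifen+primidone and tamoxifen uteri the value was 0.76 ± 1.02 (edgeR adjusted p = 0.801), and 2.71 without tamoxifen 2.

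In tamoxifen against control, 0 of the 7 tested other genes passed edgeR's test, where 1.53% of all genes did, 0.573% higher and 0.961% lower. An unadjusted p under 0.05 was reached by 3 (Mrgprb2, Enpp3 and Gata2, all lower) and by 17.8% of all genes. DESeq2 called 2 and limma on log2(FPKM + 1) called 1, with 7.53% and 1.39% of all genes called. Enpp3, a surface ectoenzyme of mast cells and basophils, and Gata2, a transcription factor needed by mast cells, stood at 455 and 139 CPM in tamoxifen uteri against 601 and 170 CPM in control uteri. Those levels are far above any mast cell protease, and both genes are known from other uterine cells. Enpp3 fell to 415 ± 14.6 CPM in tamoxifen+primidone libraries, against 601 ± 55.4 CPM in control libraries (log2 fold change −0.53 ± 0.12, edgeR adjusted p = 0.0312, where 5.35% of all genes passed, 2.14% higher and 3.21% lower). Adjusted p for Enpp3 ran from 0.000502 to 0.108 over the alternatives, and the call was lost without any 1 of the 6 libraries compared, at 0.052 to 0.108.

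Srgn, which encodes the granule proteoglycan serglycin of mast cells and other leukocytes, had 161 ± 9.57 CPM in tamoxifen+primidone, 104 ± 17.2 CPM in tamoxifen and 118 ± 7.33 CPM in control uteri. Srgn did not pass in tamoxifen+primidone against tamoxifen (log2 fold change 0.63 ± 0.11, edgeR adjusted p = 0.0803) or against control (0.44 ± 0.11, edgeR adjusted p = 0.0515). Against control it was called under 8 of the 17 alternatives, DESeq2 and limma among them, with adjusted p of 0.00885 to 0.176. Between those groups of tamoxifen-dosed mice 0 of 7 passed edgeR's test, Srgn alone had an unadjusted p under 0.05, and DESeq2 called it (adjusted p = 0.000263, with 0.000263 to 0.208 over the alternatives). Il1rl1, the interleukin 33 receptor, Hpgds, a prostaglandin D2 synthase, and Ndst2, a heparin-modifying enzyme, had log2 fold changes of −0.36 to 0.66 in the 3 comparisons and none passed by edgeR, with none under an unadjusted p of 0.05. Median log2 fold changes of the 7 were −0.19 in tamoxifen against control, 0.07 in tamoxifen+primidone against tamoxifen and −0.09 in tamoxifen+primidone against control.

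Slc18a2, the transporter that loads histamine into granules, was too low to test, with 7, 6 and 3 counts in tamoxifen+primidone libraries, 5, 3 and 0 in tamoxifen libraries and 9, 20 and 11 in control libraries. All controls stood above the other 6 libraries, but by little, with 9 counts in control 1 and 7 in tamoxifen+primidone 1. Fcer1a, Cd200r3, Rgs13 and Mrgprb1, mast cell genes also too low to test, did not show this order. The basophil gene Mcpt8 had at most 4 counts in any library. Of 8 eosinophil markers, the granule genes Epx, Prg2, Prg3, Ear1 and Ear6 had at most 21 counts in any library, and the surface receptor genes were higher. Ccr3 had 579, 652 and 256 counts in tamoxifen+primidone libraries, 460, 450 and 497 in tamoxifen libraries and 406, 56 and 247 in control libraries. Il5ra had 92, 67 and 22 counts in tamoxifen+primidone libraries, 55, 60 and 70 in tamoxifen libraries and 94, 55 and 81 in control libraries. The summed level of the 8 was 10.0 to 25.4 CPM in tamoxifen+primidone, 17.5 to 19.8 CPM in tamoxifen and 3.69 to 16.1 CPM in control libraries. Markers of all leukocytes did not move as one. The sum of 4 was 257 to 334 CPM in tamoxifen+primidone, 276 to 308 CPM in tamoxifen and 249 to 301 CPM in control libraries. In tamoxifen against control Ptprc, Coro1a and Cd53 had log2 fold changes of 0.47, 0.39 and 0.50, and Laptm5 −0.13. Of 6 macrophage markers 5 were positive there and 1, Cd68 at −0.22, was negative, with a median of 0.42. Ptprc, the pan-leukocyte gene CD45, had 51.1 CPM in tamoxifen+primidone, 52.6 CPM in tamoxifen and 38.0 CPM in control uteri, with a log2 fold change of 0.47 ± 0.17 in tamoxifen against control (edgeR adjusted p = 0.188) and −0.04 ± 0.17 in tamoxifen+primidone against tamoxifen (edgeR adjusted p = 0.947).

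**Figure D4:**
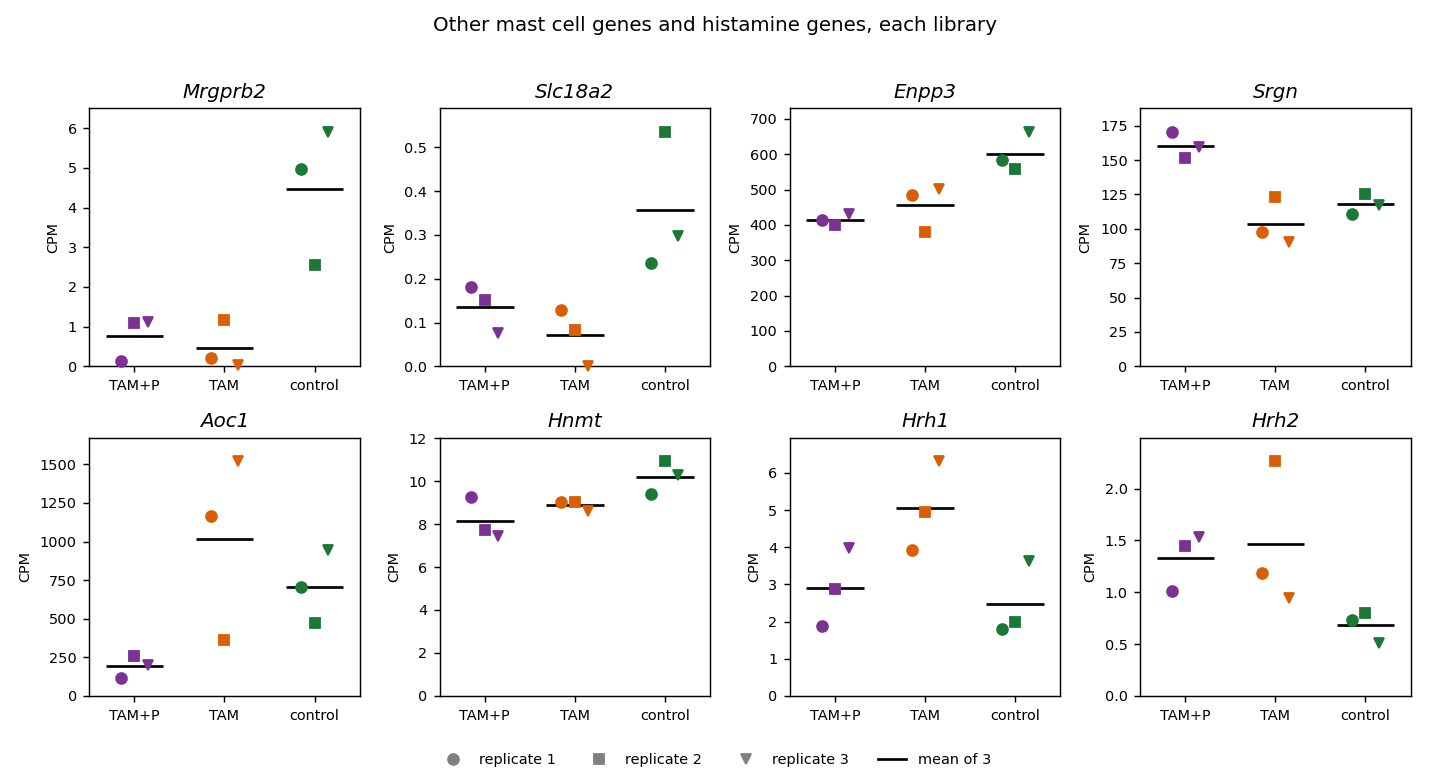
CPM of 4 other mast cell genes (top) and of 4 genes of histamine breakdown and sensing (bottom) in each library, in tamoxifen+primidone (TAM+P), tamoxifen (TAM) and control uteri; each symbol is 1 library and the bar the mean of 3. Mrgprb2 and Slc18a2 were higher in all 3 control libraries than in the other 6, and Aoc1 was lowest in the 3 tamoxifen+primidone libraries. Slc18a2 rests on 0 to 20 counts per library and was not tested.

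The genes that clear or sense histamine were described beside Hdc. Aoc1, diamine oxidase, which degrades histamine outside cells, had 116, 259 and 201 CPM in tamoxifen+primidone libraries, 1163, 365 and 1520 CPM in tamoxifen libraries and 706, 475 and 942 CPM in control libraries. Tamoxifen+primidone libraries were the 3 lowest of the 9. Its log2 fold change was −2.41 ± 0.55 against tamoxifen (edgeR adjusted p = 0.151) and −1.88 ± 0.54 against control (edgeR adjusted p = 0.0862), so it did not pass in either comparison. The adjusted p over the alternatives was 0.000704 to 0.305 and 0.00584 to 0.213, with DESeq2 the lowest. Hnmt, which methylates histamine inside cells, stood at 8.13, 8.90 and 10.2 CPM on average in tamoxifen+primidone, tamoxifen and control uteri.

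The histamine receptor genes Hrh1 and Hrh2 were above their control ranges in all 3 tamoxifen libraries, as were 12.7% of all genes. Hnmt was below its control range there, as were 13.4% of all genes, 26.1% in all. Hrh1 had 5.06 ± 1.20 CPM in tamoxifen and 2.48 ± 1.01 CPM in control uteri (log2 fold change 1.03 ± 0.36, edgeR adjusted p = 0.174), and Hrh2 had 1.46 ± 0.702 CPM in tamoxifen and 0.683 ± 0.151 CPM in control uteri (1.09 ± 0.43, edgeR adjusted p = 0.225). Hrh3 and Hrh4 had at most 2 counts in any library. Of the 4 tested genes of this group 0 passed edgeR's test in any comparison. An unadjusted p under 0.05 was reached by 2 in tamoxifen against control, 1 in tamoxifen+primidone against tamoxifen and 2 in tamoxifen+primidone against control, and DESeq2 called 0, 1 and 1 of them. Over all genes in these comparisons 17.8%, 13.8% and 23.2% had an unadjusted p under 0.05, and DESeq2 called 7.53%, 3.95% and 12.4%.

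Of 5 enzymes that make leukotrienes or prostaglandin D2, 0 passed edgeR's test in any comparison, and DESeq2 called 1, in tamoxifen against control. There 2 had an unadjusted p under 0.05, with 1 in tamoxifen+primidone against tamoxifen and 0 in tamoxifen+primidone against control. Over all genes 17.8%, 13.8% and 23.2% did, and DESeq2 called 7.53% in tamoxifen against control. Ltc4s, leukotriene C4 synthase, was nearest, with 6.24 ± 2.61 CPM in tamoxifen+primidone, 11.8 ± 1.78 CPM in tamoxifen and 5.47 ± 1.32 CPM in control uteri. Its log2 fold change was 1.11 ± 0.29 in tamoxifen against control (edgeR adjusted p = 0.0893, with 0.00661 to 0.239 over the alternatives) and −0.92 ± 0.29 in tamoxifen+primidone against tamoxifen (edgeR adjusted p = 0.21). Of 13 genes of IgE receptor and Kit signalling 0 passed edgeR's test in any comparison. For tamoxifen over control, tamoxifen+primidone over tamoxifen and tamoxifen+primidone over control, the number with an unadjusted p under 0.05 was 3, 1 and 3 of 13, to be read beside the shares of all genes given above, and DESeq2 called 2, 1 and 1. Their fold changes were small, with a median log2 fold change of 0.16 for tamoxifen over control, −0.01 for tamoxifen+primidone over tamoxifen and 0.11 for tamoxifen+primidone over control.

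Of 9 tested factors that attract or sustain mast cells, 1 passed in 1 comparison, tamoxifen+primidone against control, where 5.35% of all genes did. DESeq2 called 1, 1 and 2 in the same 3 comparisons, with 7.53%, 3.95% and 12.4% of all genes called. Ccl11, the chemokine eotaxin-1, fell to 82.1 ± 30.8 CPM in tamoxifen+primidone, against 177 ± 17.3 CPM in control uteri (log2 fold change −1.11 ± 0.26, edgeR adjusted p = 0.0483), and had 100.3 ± 25.0 CPM in tamoxifen uteri (−0.82 ± 0.26 against control, edgeR adjusted p = 0.155). The first value lay close to the threshold, was called under 7 of the 17 alternatives, and ran from 0.00024 to 0.147 over them. Alternatives in which the call was lost included those without tamoxifen+primidone 2 or 3, tamoxifen 1 or 3 or any control library. Il33, a cytokine that activates mast cells through Il1rl1, had 110, 85.2 and 89.9 CPM in tamoxifen+primidone libraries, 55.4, 51.4 and 55.8 CPM in tamoxifen libraries and 52.2, 80.0 and 39.9 CPM in control libraries. The tamoxifen+primidone libraries were the 3 highest, and the value did not pass against tamoxifen (log2 fold change 0.81 ± 0.22, edgeR adjusted p = 0.178) or against control (0.73 ± 0.22, edgeR adjusted p = 0.0861). Of 6 tested transcription factors of mast cells, Mitf and Gata1 among them, 0 passed edgeR's test in any comparison. An unadjusted p under 0.05 was reached by 1 for tamoxifen over control, 0 for tamoxifen+primidone over tamoxifen and 1 for tamoxifen+primidone over control, and DESeq2 called 0, 0 and 1. Over all genes 17.8%, 13.8% and 23.2% had an unadjusted p under 0.05, and DESeq2 called 7.53%, 3.95% and 12.4%.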

How the data were processed

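RNA of 9 uteri was sequenced, and columns were matched to samples by their labels. Per the submitters' processing notes, the tools were R 3.2.0, HISAT2, DESeq2 and HTSeq, with build GRCm39; neither annotation nor strand setting is named in the sources used. The deposited values, made by the authors, are raw counts and FPKM for 18094 gene symbols. All 9 libraries entered 1 edgeR 4.0.16 quasi-likelihood fit under R 4.3.3 (TMM, default filter by group, robust), leaving 15186 genes. Tests were two-sided, adjusted by Benjamini-Hochberg across those genes, and called at 0.05. SE was derived from the fold change and its F statistic. DESeq2 1.42.0 and limma 3.58.1 served as alternatives, and the fit was tested on simulated data. Members and lists were chosen with earlier results of these data known. All 8 genes and the tested mast cell genes could be named by rule, together with the 8 genes most like the proteases. Every other gene given with values was chosen after its values were seen. Replicates are separate mice per the labels' design, and each pair differed beyond sampling noise, by chi-square over its degrees of freedom of 20.29 to 81.79. Coordinates and promoters are from RefSeq (GRCm38.p6), not the authors' build. Of the 31-base words in GENCODE M21 transcripts, another gene shares 12.2% for Mcpt4, mostly Cma2, which had at most 1 count in any library, 10.6% for Cma1 and 3.96% for Ms4a2, so these 3 carry some uncertainty from read sharing.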

Additional observations from a re-analysis of the deposited data

How the results depend on the processing

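Counts of calls depended on the tool and on single libraries. In tamoxifen against control the 233 genes called became 1143 with DESeq2, 546 with only the 6 libraries compared, and 22 (without control 1) to 439 (without tamoxifen+primidone 1) with 1 library left out. In tamoxifen+primidone against tamoxifen the 2 genes became 9 with DESeq2's size factors in edgeR, 21 without a low-count filter, 600 with DESeq2, 1 with limma on log2(FPKM + 1), 53 with the replicate block, and 0 (without control 1) to 85 (without tamoxifen+primidone 1) with 1 library left out. In tamoxifen+primidone against control the 812 genes became 1889 with DESeq2 and 122 (without control 1) to 800 (without tamoxifen 2) with 1 library left out; the split of 325 higher and 487 lower was 431 and 400 with upper-quartile factors, 602 and 318 with limma on log2(FPKM + 1), and 623 and 297 on log2(FPKM + 0.1). Of the other mast cell genes, 0 were called in tamoxifen against control, but 2 with DESeq2 and 1 with limma on log2(FPKM + 1), and 0 in each fit with 1 library left out. In tamoxifen+primidone against tamoxifen 0 became 1 with DESeq2, and 0 to 1 with 1 library left out. In tamoxifen+primidone against control 1 became 2 with upper-quartile factors, 3 with DESeq2, 3 with limma on log2(FPKM + 1), 2 on log2(FPKM + 0.1), 2 with only the 6 libraries compared, 2 with the replicate block, and 0 to 2 with 1 library left out. Among the 8 genes of the set, 0 calls in tamoxifen+primidone against tamoxifen became 1 with DESeq2 and stayed 0 with each library left out in turn. The causes were not tested. Alternatives for Aoc1, Ltc4s, Ccl11 and Ano1 were added after seeing the data. Log2 fold changes of Mcpt4, Tpsb2, Cma1 and Kitl kept their sign under all 17 alternatives in each comparison. Cpa3 and Kit kept theirs under 15 and 13 of the 17 in tamoxifen+primidone against control. Hdc kept its sign under 16 of the 17 in tamoxifen+primidone against tamoxifen. For genes chosen by their levels in tamoxifen against control uteri, a kept sign there was favoured beforehand and is no support. Same-numbered libraries of different groups did not deviate together, with correlations of deviations from the group mean of −0.126 to 0.169 over 9 pairs, so the numbers were not taken to pair the samples. Of the set, 0 genes were called under the replicate block in tamoxifen+primidone against tamoxifen, the comparison in which it was run as a test. Proteases rest on few counts, so counting error limits them more than Kitl or Kit.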

Other observations

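Proteases of mucosal mast cells and of other granulocytes were near 0. Mcpt2 had 0, 30 and 1 counts in tamoxifen+primidone libraries, 1, 1 and 1 in tamoxifen libraries and 0, 1 and 0 in control libraries. Mcpt1 had 6, 11 and 0 counts in tamoxifen+primidone libraries and 0 in each tamoxifen and control library. Ctsg, cathepsin G, had 5, 9 and 4 counts in tamoxifen+primidone libraries, 0, 0 and 10 in tamoxifen libraries and 0 in each control library. Tamoxifen+primidone 2, where Hdc and Cpa3 were highest, thus also held most of the Mcpt2 counts.

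The genes whose variation among libraries of the same group was most like that of the 4 proteases were ranked over the 9 libraries among 13699 genes, after subtracting each group's mean. F2rl1, which encodes protease-activated receptor 2, came first with a Pearson r of 0.966, followed by Amy1 at 0.955, Smurf1 at 0.948, Fbxl21 at 0.943, Slc4a2 at 0.943, Apbb1 at 0.941, Hmgcll1 at 0.938 and Ccdc9b at 0.936. By the same measure the proteases stood at 0.872 for Mcpt4, 0.824 for Tpsb2, 0.736 for Cma1 and 0.602 for Cpa3, Hdc at 0.783, Kit at 0.10 and Mrgprb2 at −0.05. With so many genes and 9 libraries of shared depth, values of this size are a ranking and not evidence of a relation.

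Siglecf, an eosinophil surface gene, had 4.65 ± 1.87 CPM in tamoxifen+primidone, 4.49 ± 0.358 CPM in tamoxifen and 2.08 ± 1.20 CPM in control uteri, with a log2 fold change of 1.11 ± 0.47 in tamoxifen against control that did not pass (edgeR adjusted p = 0.254).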
